A study of Mus musculus with 37 samples.

Results

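Factor-negative cells were the cells of a fibroblast reprogramming culture with 0 counts of each of 13 cardiac or myogenic factors. The factors were the GATA proteins Gata6, Gata4 and Gata5, the HAND proteins Hand2 and Hand1, Mef2c, Tbx5, Nkx2-5, Isl1, Mesp1, Foxn4 and the muscle regulators Myod1 and Myocd. The cells of all libraries were pooled, the deeper copy of any repeated barcode was kept, and 3769 of 8565 cells met the rule. That was 44.0% of cells, with an exact (Clopper-Pearson) 95% binomial interval of 42.9% to 45.1% that covers counting error only. The cells were chosen by their measured counts of these factors, so the 13 factors were left out of every test below.

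The culture was of mouse embryonic fibroblasts (MEFs) on the ICR background, infected with retroviral vectors for a pool of 48 factors and grown for 7 days. It was profiled with Drop-seq, which pairs single cells with barcoded beads in droplets and counts 3′ tags of polyadenylated RNA by unique molecular identifier. All 37 samples were technical replicates of 1 biological replicate and all received the same pool, so no uninfected or empty-vector group was analysed here, and factor-negative cells could carry the other factors of the pool. Technical replicates 4 and 6 shared 59 barcodes, where the next pair shared 4, and were treated as 1 library, which left 36 libraries. The libraries came from 1 culture, so every p-value measures only the spread between technical libraries.

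Embryonic fibroblasts are mesenchymal cells that secrete and crosslink collagen matrix and that divide readily in culture. On stiff plastic and in serum they tend to assemble smooth muscle actin fibres, a contractile state called the myofibroblast. MEF cultures are also mixed by origin, since the embryo's body wall contributes several mesenchymal lineages along with some immune, vascular and nerve-associated cells.

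The rule depended on depth. Factor-negative cells held a median of 6679 counts (range 1610 to 105069) and 3071 genes, and the 4796 other cells a median of 11142.5 counts and 4133.5 genes. From the shallowest to the deepest quartile of cells, divided at 5412, 8553 and 15915 counts, the factor-negative share was 61.4%, 52.5%, 40.9% and 21.3%. When 7599 cells with at least 4000 counts were each thinned to 4000, 64.3% had 0 counts of the 13 factors, against 41.3% of the same cells before thinning. Of the 4887 cells at 0 after thinning, 3136 (64.2%) were factor-negative at full depth. A count of 0 therefore did not show that a cell lacked a vector. Over the 36 libraries the share was 44.4% ± 7.18 (SD), lowest 30.7%, median 44.5% and highest 63.1%. The libraries held 37 to 248 factor-negative cells each, with 190410 to 1840820 summed counts.

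**Figure D1:**
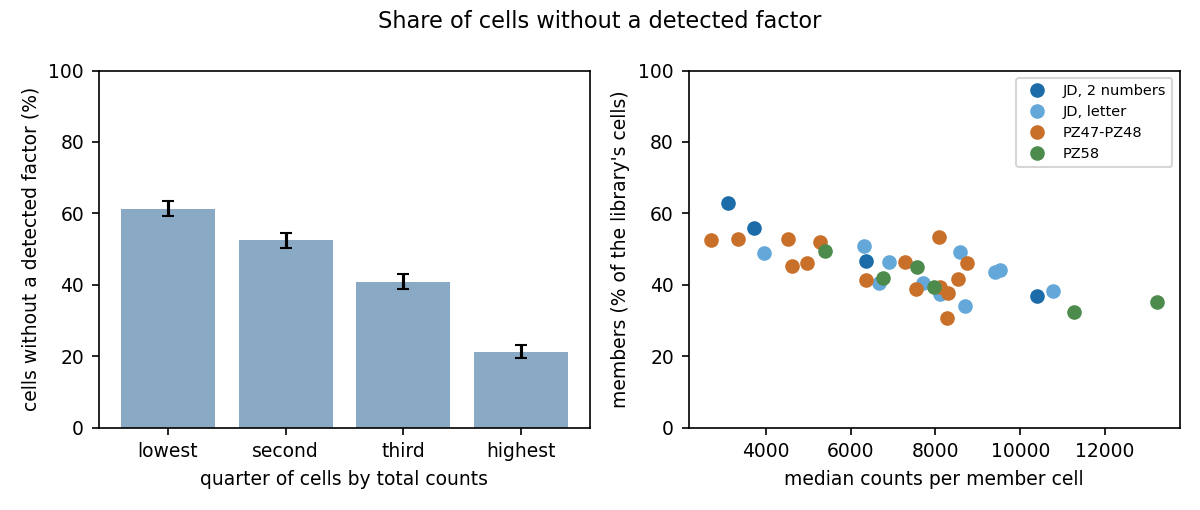
Left, the percentage of cells with 0 counts of the 13 factors in each quartile of total counts, with exact 95% binomial intervals; right, the percentage in each of 36 libraries against the median counts of its factor-negative cells, coloured by the start of the library's name. The share falls from 61.4% in the shallowest quartile to 21.3% in the deepest.

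The cells just outside the rule are set beside those inside it as a description. The 1860 cells with 1 factor count in all had a median of 8061 counts, Col1a1 at 4211 CPM (counts scaled to the same total in every library) ± 558 (SD, 36 libraries) and Mgp at 1656 ± 814. Factor-negative cells had Col1a1 at 4321 ± 662 and Mgp at 1580 ± 604. Col3a1 was at 1405 ± 235 outside and 1313 ± 185 inside. A mesothelium list summed to 245 ± 163 CPM just outside and 146 ± 78.9 inside. A skeletal muscle list summed to 195 ± 143 outside and 222 ± 149 inside, and G2 and M phase genes to 2397 ± 801 and 2577 ± 549. In these values the spread over libraries of each group reached the other's mean, apart from the mesothelium list, whose mean outside lay more than 1 SD above that of factor-negative cells. Among the 4796 other cells the factor most often counted was Mef2c (2231 cells, 46.5%), followed by Gata6 (2002, 41.7%) and Hand2 (910, 19.0%). Of these cells, 2704 had 1 factor detected.

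The label of fibroblasts was checked against 5 markers, with CPM taken from the summed counts of each library's factor-negative cells. Col1a1 (ENSMUSG00000001506), the alpha-1 chain of type I collagen, lies on chromosome 11 from 94936224 to 94953042 on the plus strand (GRCm38, GENCODE M21). It ranged from 2560 to 5623 CPM with a median of 4326 and was counted in 99.8% of factor-negative cells. Col3a1 (ENSMUSG00000026043; chromosome 1, 45311538 to 45349706, plus strand), which encodes type III collagen, ranged from 983 to 1757 CPM, median 1304, and was counted in 95.3%. Both collagens were counted in nearly every cell, and Col1a1 was highest in the libraries named PZ58.

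Mgp (ENSMUSG00000030218; chromosome 6, 136872435 to 136875823, minus strand), the matrix Gla protein that inhibits calcification, ranged from 548 to 2988 CPM with a median of 1643. Ogn (ENSMUSG00000021390; chromosome 13, 49608046 to 49624501, plus strand), the small leucine-rich proteoglycan osteoglycin, ranged from 288 to 660 CPM with a median of 404, and its span overlaps the gene Cenpp, so reads of the pair may not be separable. Ly6a (ENSMUSG00000075602; chromosome 15, 74994877 to 74998031, minus strand), the surface antigen Sca-1 of several progenitor and adventitial fibroblasts, ranged from 78.9 to 294 CPM with a median of 138. Mgp was counted in 80.2% of factor-negative cells, Ogn in 75.1% and Ly6a in 35.5%.

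A count in a droplet does not by itself show that its cell made the RNA, so the shares were set beside those of cells of another type. In 37 cells with at least 5 macrophage markers, 7 of them factor-negative, whose median depth was 8047 counts, Mgp was counted in 73.0% (exact 95% interval 55.9% to 86.2%), Ogn in 62.2% (44.8% to 77.5%) and Ly6a in 37.8% (22.5% to 55.2%). The shares of all 3 genes in factor-negative cells lay within these intervals and are not read as expression in that fraction of cells. Free RNA and droplets with more than 1 cell cannot be told apart here. The collagens stood apart in level: the median cell had 4123 CPM of Col1a1 among factor-negative cells and 1082 CPM in the macrophage-marker cells, and 1052 against 301 CPM of Col3a1. The median cell had 408 against 350 CPM of Mgp, 263 against 124 of Ogn and 0 against 0 of Ly6a. Thy1, a fibroblast surface glycoprotein, had a median of 137 CPM per cell against 21.2, but in summed counts it was at 295 CPM against 404 and it was counted in 59.6% of factor-negative cells against 51.4% (34.4% to 68.1%). In summed counts the collagens differed less, at 4279 against 3238 CPM of Col1a1 and 1308 against 923 of Col3a1. The smooth muscle actin gene Acta2 also stood apart in the median cell, at 3553 against 1139 CPM. The fibroblast label therefore rested mainly on the median-cell levels of type I and III collagen, and less on summed counts.

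**Figure D2:**
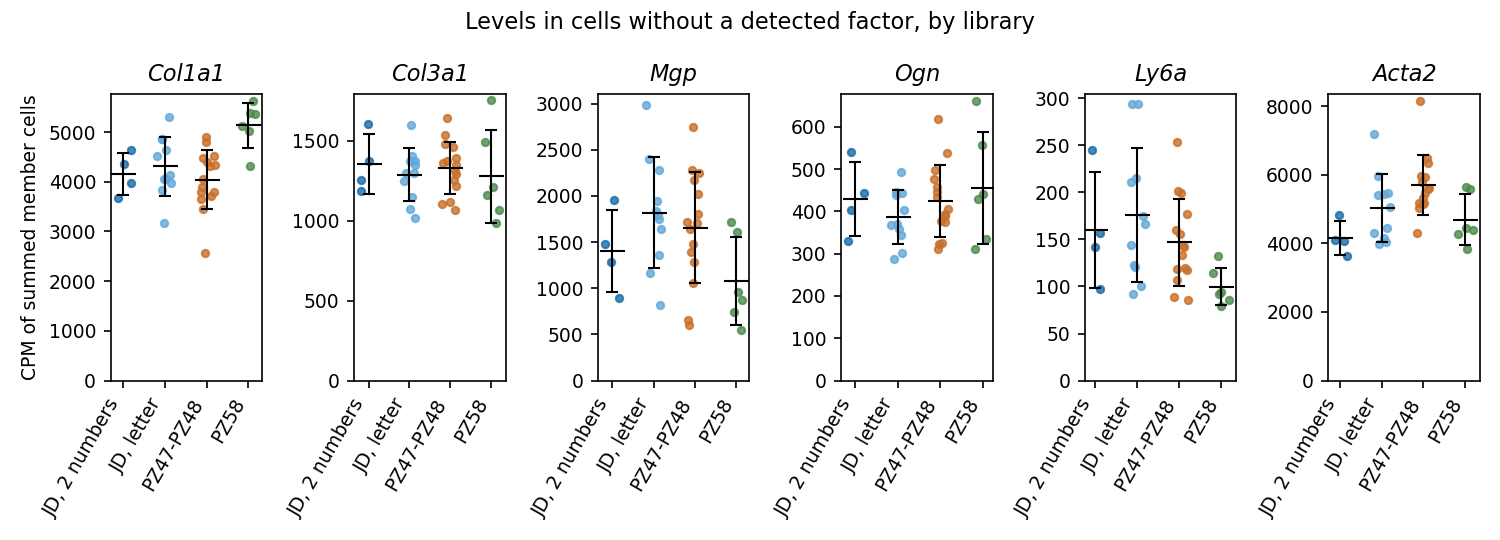
CPM of the summed factor-negative cells in each library (points) for Col1a1, Col3a1, Mgp, Ogn, Ly6a and Acta2, by the form of the library's name, with the mean and SD in black. In the 6 libraries named PZ58, Col1a1 averages 5138 CPM and Mgp 1076 CPM, against 4045 and 1656 CPM in those named PZ47 or PZ48.

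The most abundant tags were largely of cytoskeletal and matrix genes, in a ranking pooled over libraries that did not count all genes alike. The ribosomal gene Rps27a averaged 8.50 CPM in the libraries named JD with a letter and 9.23 in PZ47 and PZ48, against 1143 in JD libraries with a pair of numbers and 1039 in PZ58, so such genes could be missing from the order. By share of all counts, which is not divided by transcript length, the first was the nuclear RNA Malat1 at 1.28%. It was followed by the cytoskeletal genes Actb (0.685%) and Tmsb4x (0.665%), the matrix protein Sparc (0.637%), the galectin Lgals1 (0.581%), the type I collagen chain Col1a2 (0.515%) and Acta2 (0.509%). Acta2 encodes smooth muscle alpha-actin. It ranged from 3633 to 8141 CPM over libraries, median 5174, and was counted in 99.0% of factor-negative cells and in all 37 macrophage-marker cells. The tropomyosin Tpm1, Col1a1, the actin-binding Cald1, the ferritin chain Ftl1, Vim (vimentin), the imprinted RNA H19, S100a6 and Hsp90ab1 completed the 15 genes with the most counts. Prrx1, a homeobox factor of limb and body wall mesenchyme, was at 534 CPM ± 72.3 and the surface receptor Pdgfrb at 127 ± 18.3.

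Markers of other cell types ranged from near 0 to above the level of the receptor Pdgfrb. Col11a1, a collagen of the cartilage list, was at 329 CPM ± 56.3, Tnnt2 of the cardiomyocyte list at 126 ± 75.5 and the skeletal actin Acta1 at 123 ± 77.1. At least 3 markers of 1 other type were counted in 756 factor-negative cells (20.1%) and in 2271 other cells (47.4%). These shares were not matched on depth, which had a median of 6679 counts in factor-negative cells and 11142.5 in the others. Deeper cells reach 3 markers more easily, so the gap is not read as a difference in cell types. Within factor-negative cells the cardiomyocyte list met this in 335 cells (8.89%), the cartilage list in 236 (6.26%), the skeletal muscle list in 215 (5.70%), mesothelium in 104 (2.76%), glia and neural crest in 24, macrophage in 18, endothelium in 7 and epithelium in 0 of 3769 (exact 95% upper bound 0.0978%). The summed cardiomyocyte list was 274 CPM ± 160 (102 to 935), the skeletal muscle list 222 ± 149 (89.9 to 935) and the cartilage list 437 ± 69.8. The macrophage list was 46.9 ± 78.1, from 10.5 CPM to 474 CPM in technical replicate 7. The defining endothelial gene Cdh5 was at 0 in 34 of 36 libraries and the epithelial Epcam at 0 in 31, while Upk3b (mesothelium) averaged 3.39 CPM, Myog (skeletal muscle) 4.30 and Lyz2 (macrophage) 14.9, the last with a median of 3.54. No doublet caller was run.

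Variation between factor-negative cells was measured as the squared coefficient of variation of CPM within a library beyond what counting noise gives, with the median taken over 36 libraries. Over the 7452 genes with at least 20 CPM its median was 0.202, and 661 genes (8.87%) reached 1. At the top were genes with many counts in few cells. Mmp13, a collagenase, had an excess of 34.6 and was counted in 3.77% of cells. Mmp3, the protease stromelysin-1, had 16.0, Sfrp4, a secreted Wnt antagonist, 13.9, Il1rn, the interleukin-1 receptor antagonist, 13.3, and Krt18, a simple epithelial keratin, 12.9. The excess of Mmp3, a gene at 20.3 CPM, was above 0 in only 23 of 36 libraries, with quartiles of 1.35 and 47.6.

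Matrix and smooth muscle genes followed within the 20 most variable. Eln, which encodes elastin, had an excess of 11.6 at 199 CPM and in 29.1% of cells. Myh11, the smooth muscle myosin heavy chain, had 11.5 at 115 CPM and in 19.5%, and Igfbp5, a binding protein of insulin-like growth factors, 10.4 at 302 CPM and in 35.6%. The lipocalin Apod (11.3), the skeletal actin Acta1 (10.9), Stmn2 (10.8), the chemokine Cxcl14 (10.2), the interferon target Ifit1 (9.27), the water channel Aqp1 (9.26) and Igfbp2 (9.02) were also among them, with Crct1 (12.7) and Mcpt8 (11.5). So were 3 gene models, Gm10800 (21.1), Gm10801 (17.3) and Elobl (20.6). The excess of Gm10801, at 21.0 CPM, was above 0 in only 22 of 36 libraries. Without the cells that held at least 3 markers of another type the excess was 22.6 for Mmp13, 5.68 for Apod, 6.90 for Crct1 and 7.03 for Acta1, each lower by more than 1.5 times.

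Among lists with at least 6 genes at this level, chemokine, adipogenic and Wnt genes had the highest medians. All 6 chemokines and cytokines reached an excess of 1 (median 4.76), as did 4 of 6 adipogenic genes (4.22), 5 of 6 Wnt ligands and antagonists (3.51), 7 of 8 leucine-rich proteoglycans (2.90), all 24 genes of G2 and M phase (2.48) and 12 of 17 growth factors and their binding proteins (1.66). Immediate early (median 1.21, 8 of 14), interferon (5 of 8), fibroblast surface (1.09, 6 of 12) and S phase genes (1.04, 10 of 17) followed. Among the proteoglycans, Lum (lumican) had 5.74, Dcn (decorin) 3.49 and Ogn 1.10. Among the 5 markers, Mgp had 3.70 and Ly6a 3.22, while Col3a1 had 0.705 and Col1a1 0.265.

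Structural and housekeeping lists varied less. The 15 collagens had a median of 0.535 with 4 at 1 or more, the 19 contractile genes 0.675 with 6, and the 14 fibroblast regulators 0.656 with 3. Acta2 itself had 0.736, Tagln (transgelin) 0.675, Prrx1 0.403 and Vim 0.212. Lowest were 16 glycolysis and hypoxia genes (0.246), 17 genes of secretory stress (0.244) and 7 mitochondrially encoded genes (0.281), with 2, 1 and 0 genes at 1 or more. Without the cells that held at least 3 markers of another type, 588 of 7452 genes reached 1.

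**Figure D3:**
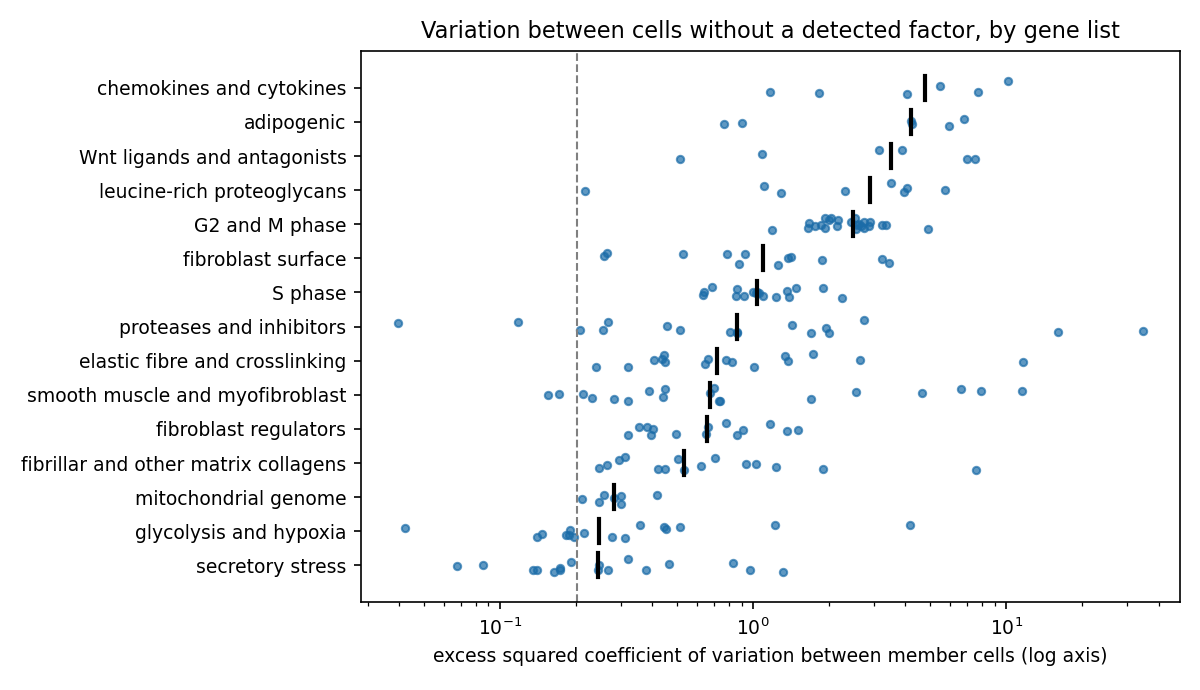
Each point is a gene's squared coefficient of variation between factor-negative cells beyond counting noise (log axis; median over 36 libraries), by gene list, for genes of at least 20 CPM and a value above 0; black bars are list medians and the dashed line the median of all 7452 genes, 0.202. Chemokines and cytokines (4.76), adipogenic (4.22) and Wnt genes (3.51), leucine-rich proteoglycans (2.90) and G2 and M phase (2.48) lie to the right, while secretory stress (0.244) and glycolysis (0.246) lie near the line.

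How the programs moved together from cell to cell was described with Spearman's rho over 3136 factor-negative cells thinned to 4000 counts, computed within each of 34 libraries. S phase and G2 and M phase sums rose together in every library (median rho 0.573, 0.448 to 0.685). Mgp and Ogn were positively related in 34 of 34 libraries (0.239). Leucine-rich proteoglycans and the contractile list were negatively related in 34 of 34 (-0.159), and the collagen list and G2 and M phase in 32 of 34 (-0.193). Mgp against Acta2 was at -0.167 and above 0 in 3 libraries. Contractile genes against G2 and M phase were at 0.039, above 0 in 21 of 34. These values come from sparse counts that share libraries and depth, carry no p, and all but the first are weak.

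The contractile axis was then tested in sums of cells. Within each library, factor-negative cells of the highest tercile of Acta2 CPM were paired by total counts with cells of the lowest, giving 797 pairs in 30 libraries. Acta2 itself, which chose the cells and was left out, ranged from 6564 to 14500 CPM in the high cells and from 665 to 1749 in the low cells. In edgeR's quasi-likelihood test with library as a block and Benjamini-Hochberg adjustment at 0.05, 1111 of 13036 genes were higher in Acta2-high cells and 1143 lower, 17.3% in either direction (8.52% higher, 8.77% lower). Of these, 179 were at least 2-fold higher and 258 at least 2-fold lower.

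All 19 other genes of the contractile list rose, with a median log2 difference of 1.72 against -0.05 over all genes tested. Actg2, the enteric smooth muscle actin (chromosome 6, 83512905 to 83536265, minus strand), ranged from 199 to 2079 CPM in Acta2-high cells, median 988, and from 27.6 to 208 in Acta2-low cells, median 65.9. It was higher in 30 of 30 libraries, by 4.00 (log2, SE 0.11; edgeR adjusted p = 1.51e-48), and the ranges met only at their ends. Cnn1, the actin-binding calponin-1, ranged from 215 to 971 CPM against 6.59 to 108, without overlap, a log2 difference of 3.25 (SE 0.094, edgeR adjusted p = 1.83e-46).

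Myl9, the regulatory light chain of smooth muscle and non-muscle myosin, ranged from 807 to 1910 CPM, median 1420, against 138 to 454, median 294. Its groups did not overlap and differed by 2.36 (SE 0.067, edgeR adjusted p = 9.02e-47). Myh11 had a median of 285 CPM in Acta2-high cells and 13.2 in Acta2-low cells, 4.02 higher (SE 0.15, edgeR adjusted p = 1.28e-39) and higher in 30 of 30 libraries, although its ranges of 52.3 to 775 and 0 to 93.5 overlapped. The myosin light chain kinase Mylk was 3.05 higher and the leiomodin Lmod1, which nucleates actin filaments, 2.74 higher. Both were higher in every library.

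The CArG box is the DNA element bound by serum response factor, known to regulate many contractile genes. In RefSeq promoters (GRCm38.p6), the 250 bases before each start were searched for exact matches on both strands, as a description that draws nothing about the factor. A match was present in 378 of 27025 promoters (1.40%), in 124 of 9919 of genes tested here (1.25%), in 33 of 864 of genes higher in Acta2-high cells (3.82%), in 12 of 132 of those higher by at least 1 log2 unit (9.09%) and in 4 of 843 of those lower (0.474%). Of the 20 contractile genes 17 were searched, without Tagln, Myh11 and Actg2, and 2 had a match: Myl9 (161 bases before the start) and Cnn2, another calponin (56 bases before the start and 1.29 higher). Both are shown with Fhl1, a LIM-domain protein of muscle that was 2.18 higher and was picked after its value was seen, and with Acta2, which has no exact match in this window. Capitals mark exact matches to the CArG box. Near matches were neither counted nor marked, among them ccctatatgg and ccttgtttgg in the Acta2 sequence, each 1 base off. The counts above therefore do not show that a promoter lacks a CArG box. The windows shown lie at chr2:156775214-156775463 (plus strand, Myl9), chr10:79988350-79988599 (plus, Cnn2), chrX:56779433-56779682 (plus, Fhl1) and chr19:34255374-34255623 (minus, Acta2).
Myl9: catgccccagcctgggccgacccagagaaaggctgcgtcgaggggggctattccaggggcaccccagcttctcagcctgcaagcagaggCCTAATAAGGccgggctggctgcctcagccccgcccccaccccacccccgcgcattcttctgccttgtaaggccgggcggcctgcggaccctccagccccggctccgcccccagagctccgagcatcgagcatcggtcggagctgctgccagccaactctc
Cnn2: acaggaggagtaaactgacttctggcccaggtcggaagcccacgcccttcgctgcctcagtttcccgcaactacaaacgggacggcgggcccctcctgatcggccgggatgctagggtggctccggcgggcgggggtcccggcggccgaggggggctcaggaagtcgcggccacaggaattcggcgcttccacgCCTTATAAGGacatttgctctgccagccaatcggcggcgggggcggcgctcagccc
Fhl1: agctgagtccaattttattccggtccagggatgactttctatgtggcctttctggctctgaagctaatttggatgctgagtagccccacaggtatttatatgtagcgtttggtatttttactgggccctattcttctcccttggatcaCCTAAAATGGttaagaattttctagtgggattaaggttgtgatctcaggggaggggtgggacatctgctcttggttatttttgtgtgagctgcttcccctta
Acta2: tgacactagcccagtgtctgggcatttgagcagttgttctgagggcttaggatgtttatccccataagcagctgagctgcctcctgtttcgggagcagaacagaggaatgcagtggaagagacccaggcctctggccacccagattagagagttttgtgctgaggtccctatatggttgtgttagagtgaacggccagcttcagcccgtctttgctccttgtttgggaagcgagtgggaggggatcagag

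Secreted and adhesive genes changed in both directions. Of 16 adhesive and matricellular genes 7 rose and 4 (Spp1, Mgp, Tgfbi and Thbs2) fell, of 16 elastic fibre and crosslinking genes 4 rose and 5 fell, and of 19 TGF-beta and BMP genes 5 rose and 4 fell. Ccn2, a matricellular target of mechanical and TGF-beta signals, averaged 743 CPM ± 277 (197 to 1378) in Acta2-high cells and 304 ± 160 (142 to 824) in Acta2-low cells. It was higher in 30 of 30 libraries by 1.41 (log2, SE 0.080, edgeR adjusted p = 1.95e-26). Inhba, an activin subunit, was 1.49 higher (483 against 191), the lysyl oxidase relative Loxl2 1.18 higher (900 against 425) and the thrombospondin Thbs1 1.00 higher. Of 16 collagens, 4 rose and 4 fell. The basement membrane chains Col4a1 (0.64) and Col4a2 (0.57) rose, as did Col12a1 and Col8a1, and Col3a1, Col6a1, Col6a2 and Col16a1 fell.

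The fibroblast markers were lower in Acta2-high cells with the exception of type I collagen. Col3a1 ranged from 706 to 1611 CPM against 988 to 2894, was lower in all 30 libraries and fell by 0.55 on the log2 scale (SE 0.057, edgeR adjusted p = 5.39e-13). Mgp was at 1132 CPM ± 669 against 2361 ± 1322, a fall of 1.03 (edgeR adjusted p = 1.29e-11), and Ly6a at 103 ± 72.9 against 226 ± 159, a fall of 1.02 (edgeR adjusted p = 2.41e-10). Both were lower in 26 of 30 libraries, with overlapping ranges. Ogn fell by 0.52. Col1a1 was at 4183 ± 708 against 4417 ± 832 CPM, with a log2 difference of 0.02 (edgeR adjusted p = 0.82).

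Proteoglycans fell in Acta2-high cells, while proteases and growth factor genes changed in both directions. Of 9 leucine-rich proteoglycans 5 fell and 0 rose, led by Lum at 35.7 against 118 CPM (-1.42) and with Dcn at -0.67. Of 19 proteases and inhibitors 7 rose, among them Mmp9, Adamts5 and Adamts1, and 8 fell. Of 19 growth factors and binding proteins Igfbp7, Igfbp2 and Pdgfa rose and 6 fell. Igfbp4 ranged from 22.1 to 118 CPM in Acta2-high cells and from 108 to 374 in Acta2-low cells, was lower in all 30 libraries and fell by 1.42 (SE 0.10, edgeR adjusted p = 5.17e-21). Igfbp5 fell by 1.88 (135 against 514 CPM), the gelatinase Mmp2 by 1.01 (152 against 327, in all 30 libraries) and Mmp13 by 3.89, the last from 71.8 CPM ± 231, an average carried by a few libraries since its median was 8.66. Il1rn fell by 1.93 and the interleukin-33 receptor Il1rl1 fell by 1.45.

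Of 17 mesenchymal regulators Tcf4, Twist1, Runx2, Runx1 and Prrx2 fell, 0 rose and 12 did not pass. Tcf4, a basic helix-loop-helix factor, was lower in all 30 libraries (204 against 359 CPM, -0.75). On the fibroblast surface the direction was mixed. Thy1 (0.77), Itgb1 (0.64), Cd44 and S100a4 rose, while Pdgfra, Ly6a, Fap, Ly6c1, Pdgfrb and Ddr2 fell. Eno1 (0.75), Ldha (0.38) and Pkm (0.36) were among 7 of 17 glycolysis and hypoxia genes that rose, and Manf (0.57) and Calr (0.34) among 10 of 17 secretory stress genes. Of cell cycle genes, 7 of 20 of S phase and 8 of 24 of G2 and M phase rose and 0 fell.

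Markers of other types differed along the same axis. Of 10 macrophage genes tested 8 were lower in Acta2-high cells, where Fcer1g and C1qb were at 0 in all 30 libraries, and Lyz2 was at 3.68 against 37.2 CPM with medians of 1.46 and 6.07. Of 12 cardiomyocyte genes 7 were higher, among them Myl4 (1.52) and Tnnt2 (0.93, 179 ± 198 against 92.2 ± 93.3 CPM), which embryonic and smooth muscle cells can also express. When the cells with at least 3 markers of another type were left out, 1594 of 12329 genes were called (12.9%). The contractile list then had 19 of 19 higher with a median of 1.65, 6 of 9 proteoglycans fell, and 0 of 3 macrophage genes were called. Regulators fell in 2 of 16, cardiomyocyte genes rose in 3 of 9, and proteases rose in 5 of 19 and fell in 8.

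**Figure D4:**
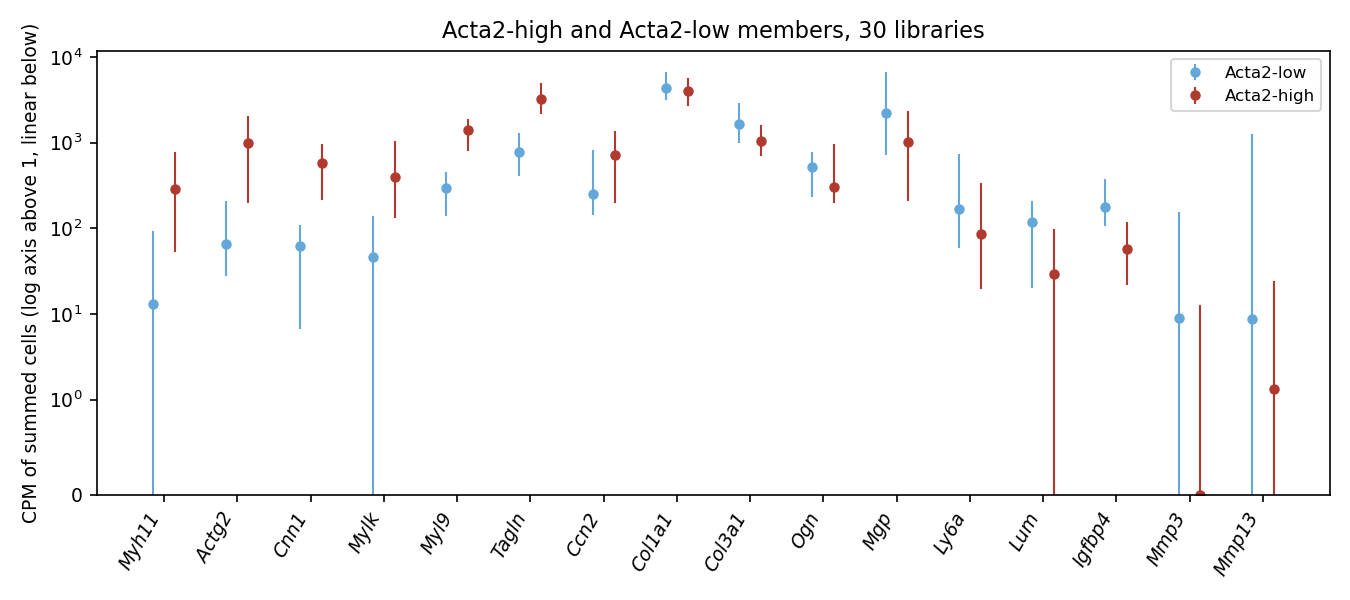
Median CPM (points) and range over 30 libraries (lines) of named genes in factor-negative cells of the highest and lowest Acta2 tercile, paired by depth (axis logarithmic above 1 CPM, linear below). Cnn1 and Myl9 do not overlap between the groups, Col1a1 coincides, and Mgp, Ly6a, Lum and Igfbp4 are lower in Acta2-high cells.

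Cells that held Ogn were compared with cells that did not, paired by depth, to describe variation along a matrix marker. The share of cells with an Ogn count lay within the interval of the macrophage-marker cells, so a count of Ogn is not shown to be expression, and its part in the differences was not tested. In 820 pairs from 30 libraries, 132 of 12750 genes were higher and 106 lower (1.87% in either direction, 1.04% higher and 0.831% lower). Elastic fibre genes leaned to Ogn-positive cells, with 7 of 16 higher and 2 lower (median 0.25 against 0.00 for all genes). Eln ranged from 22.0 to 2564 CPM, median 260, in Ogn-positive cells and from 0 to 404, median 54.0, in Ogn-negative cells. It was higher in 25 of 30 libraries by 1.64 (log2, SE 0.19, edgeR adjusted p = 4.62e-10), with overlapping ranges. The microfibril genes Fbn2 (0.73) and Mfap2 (0.61) also rose.

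Of the other markers, Mgp was at 1858 CPM ± 996 against 916 ± 686, 1.06 higher (SE 0.13, edgeR adjusted p = 2.41e-09) and higher in 25 of 30 libraries. Col3a1 was at 1503 ± 319 against 988 ± 310, 0.64 higher in 26 of 30 (SE 0.070, edgeR adjusted p = 6.21e-11). Col1a1 did not pass (0.17, edgeR adjusted p = 0.14), nor did Ly6a (-0.50, edgeR adjusted p = 0.096). The collagens Col5a2 (0.37), Col1a2 (0.29) and Col8a1 rose with Col3a1, and Col4a1 fell.

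Growth factor genes were also higher in Ogn-positive cells, 6 of 19 with 0 lower. They were Igf1 (163 against 73.1 CPM, 1.10), Igfbp4 (0.97), Igf2 (0.43), Igfbp5, Igfbp3 and Ptn. Gas2, a protein that links actin and microtubules, ranged from 34.0 to 232 CPM against 0 to 77.9 and was higher in 30 of 30 libraries by 1.45 (SE 0.14, edgeR adjusted p = 4.67e-13). Aspn, the proteoglycan asporin, was 1.06 higher (383 against 185 CPM). Aspn lies beside Ogn and both overlap Cenpp, so a shared read source cannot be told apart from a shared level. Rspo2, a Wnt agonist, was 1.76 higher, and Egr1, an immediate early factor, 0.69 higher.

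Ogn-negative cells held more of the chemokines Ccl7 (289 against 154 CPM, a log2 difference of -0.83 in Ogn-positive cells) and Ccl2, of Thy1 (356 against 250 CPM) and of the matrix protein Tnc (1083 against 774). Each passed the test, as did Actg2, Des and Tagln of the contractile list. They also held more glial and macrophage transcripts: 4 of 7 glial genes and 2 of 9 macrophage genes were lower in Ogn-positive cells, with Fabp7 at 2.59 against 17.8 CPM and Lyz2 at 4.54 ± 5.40 against 55.5 ± 184. Without the cells with at least 3 markers of another type, 177 of 12218 genes were called (1.45%), with 6 elastic fibre genes higher and 2 lower, 6 growth factor genes higher and 6 collagens higher and 1 lower. Col1a1 then passed (0.26, edgeR adjusted p = 0.0014). Of 20 contractile genes 0 were called, with edgeR adjusted p of 0.38 for Actg2 and 0.055 for Tagln. The log2 difference of Lyz2 was then 0.77. With these cells kept, it was also above 0 in DESeq2 and in the PZ47 and PZ48 libraries alone.

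Ly6a-positive cells had more of several surface and secreted genes and less of the contractile list. In 1000 pairs of Ly6a-positive and Ly6a-negative cells from 34 libraries, 135 of 13454 genes were higher and 104 lower (1.78% in either direction, 1% higher and 0.773% lower). Since the share of cells with a Ly6a count was at the level of the macrophage-marker cells, how many positive cells owed their count to RNA of other cells was not tested. Ly6c1, a neighbouring gene of the same surface antigen family, ranged from 5.10 to 215 CPM, median 40.1, in Ly6a-positive cells and from 0 to 21.3, median 6.61, in Ly6a-negative cells. It was higher in 32 of 34 libraries by 2.73 (log2, SE 0.21, edgeR adjusted p = 1.13e-17).

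The chemokine Cxcl14 was 1.44 higher (215 ± 215 against 71.9 ± 52.3 CPM, in 28 of 34 libraries), the Wnt antagonist Dkk2 1.42 higher (120 ± 77.2 against 43.0 ± 34.3, in 30 of 34) and S100a4, a calcium-binding protein often used as a fibroblast marker, 0.67 higher (means of 794 against 488 CPM). Shox2, a homeobox factor of limb mesenchyme that was also in the viral pool, was 1.22 higher (47.0 against 19.4 CPM). Of 15 fibroblast surface genes, Ly6c1, Cd34, S100a4, Vcam1 and Thy1 rose and Itgb1 fell. The interferon targets Ifit1 (1.17) and Ifi27l2a (1.18) rose, 2 of 16 on that list.

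The contractile list was lower in Ly6a-positive cells, 14 of 20 genes with 0 higher (median -0.30 against 0.00 for all genes). Acta2 ranged from 2808 to 7850 CPM against 3013 to 9848 and was lower in 28 of 34 libraries, by 0.33 on the log2 scale (SE 0.048, edgeR adjusted p = 9.65e-07). Myh11 was at 57.9 ± 54.6 against 181 ± 145 CPM, a fall of 1.59 (edgeR adjusted p = 6.89e-09), and Cnn1 at 208 against 351, a fall of 0.72. Of the markers, Ogn (-0.22), Col3a1 (0.07), Col1a1 (-0.04) and Mgp (-0.01) did not pass, with edgeR adjusted p of 0.16, 0.84, 0.88 and 1.0. Without the cells with markers of another type, 93 of 12725 genes were called (0.731%), among them 6 of 20 contractile genes lower and 0 higher. In the full comparison 3 of 7 mitochondrially encoded genes were also lower in Ly6a-positive cells, and their part in these differences was not tested.

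Factor-negative cells were last compared with the cells that held a factor, with 2887 pairs matched on total counts in 36 libraries and 29618505 against 29623163 counts in sum. This comparison asked how the baseline differs from cells in which a cardiac or myogenic factor was seen. Of 15761 genes, 1594 were higher in factor-negative cells and 1692 lower, 20.8% in either direction (10.1% higher, 10.7% lower). The differences were unequal in size: 17 genes were at least 2-fold higher and 562 at least 2-fold lower.

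The large falls were in muscle and mesothelial genes. A cell in which a factor made from its own gene was counted is placed among the other cells by the rule. How much of these falls follows from that choice was not tested. Of 20 skeletal muscle genes 19 fell (median log2 difference -3.56 against -0.01 over all genes), of 15 mesothelium genes 15 (-2.19), of 20 cardiomyocyte genes 13 (-2.57), of 15 macrophage genes 11 and of 11 glial genes 7, and 0 rose in each. Actc1, the cardiac actin that is also made by embryonic skeletal muscle, ranged from 3.77 to 250 CPM in factor-negative cells, median 9.35, and from 9.28 to 950 in the other cells, median 188. It was lower in 32 of 36 libraries and fell by 4.30 (SE 0.21, edgeR adjusted p = 4.27e-24). Mylpf, a fast skeletal myosin light chain, was at 21.2 ± 38.7 against 265 ± 224 CPM (-4.01), Tnnt2, cardiac troponin T, at 121 ± 85.1 against 621 ± 319 (-2.41), and the mesothelial Upk3b at 3.28 ± 4.42 against 33.9 ± 24.7 (-3.26).

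Several genes of the mesenchymal program were modestly higher in factor-negative cells, while others fell. Thy1 ranged from 176 to 524 CPM, median 298, against 100 to 401, median 204, and was higher in 31 of 36 libraries by 0.51 (SE 0.067, edgeR adjusted p = 2.28e-08). Lox, the enzyme that crosslinks collagen and elastin, was at 2310 ± 494 against 1736 ± 368 CPM and higher in 34 of 36 by 0.45 (SE 0.041, edgeR adjusted p = 3.32e-13). Prrx1 was 0.37 higher (545 ± 98.0 against 432 ± 57.5), Vim 0.25 higher in 36 of 36 libraries, and Snai1, a regulator of mesenchymal transition, 0.50 higher. Of 16 fibroblast surface genes 8 rose and 1 (Dpp4) fell, and of 16 elastic fibre genes 9 rose and 3 (Eln, Emilin1 and Loxl2) fell. Of 18 regulators 7 rose and 4 (Heyl, Tcf21, Runx1 and Zeb1) fell. The ranges of Thy1, Lox and Prrx1 overlapped between the groups.

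Among the collagens Col5a3, Col12a1, Col16a1, Col6a1, Col6a2, Col1a2 and Col1a1 rose, and Col15a1, Col14a1, Col4a2, Col4a1 and Col6a3 fell. Col1a1 was at 4266 ± 670 against 4024 ± 582 CPM, a log2 difference of 0.12 (SE 0.027, edgeR adjusted p = 0.000631). Ly6a passed narrowly at 0.32 (154 ± 67.0 against 131 ± 70.9 CPM, edgeR adjusted p = 0.040), higher in 22 of 36 libraries. Both calls ended without the cells holding at least 3 markers of another type, where Col1a1 differed by 0.04 (edgeR adjusted p = 0.66) and Ly6a by 0.42 (edgeR adjusted p = 0.093). Mgp (0.21, edgeR adjusted p = 0.14), Ogn (0.04, 0.63) and Col3a1 (-0.05, 0.40) did not pass. Dcn went the other way at 197 ± 61.7 against 326 ± 116 CPM (-0.64, edgeR adjusted p = 1.35e-07), and the lipoprotein lipase Lpl fell by 1.17.

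Chemokine and cytokine genes rose in 5 of 16, with 0 lower. Il1rl1 was at 58.1 ± 36.7 against 32.6 ± 36.8 CPM, 1.13 higher in 32 of 36 libraries (SE 0.17, edgeR adjusted p = 9.03e-07), and Ccl7, a monocyte chemoattractant, at 213 ± 93.5 against 134 ± 63.6, 0.75 higher (SE 0.10, edgeR adjusted p = 4.92e-08). Il11, Ccl2 and Csf1 were the others. Genes of the secretory pathway under stress rose in 11 of 17 by small amounts, Hspa5, the main chaperone of the endoplasmic reticulum, by 0.16. The cartilage collagen Col2a1 was 0.98 higher (66.7 against 33.9 CPM) and Lrrc15, a surface protein of matrix-producing fibroblasts, 0.78 higher (47.1 against 29.1). Col2a1 was the only 1 of 10 cartilage genes that rose, while 4 (Comp, Col9a1, Acan and Col11a1) fell, with a list median of -0.173.

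Cell cycle genes were higher in factor-negative cells as a block, 18 of 20 of S phase (median 0.35) and 21 of 24 of G2 and M phase (0.38), with 0 lower. Bub1, a spindle checkpoint kinase, was at 51.3 ± 14.6 against 34.3 ± 13.6 CPM and 0.60 higher. Birc5 (survivin) was 0.53 higher, the cyclin Ccne2 0.54 and the helicase subunit Mcm6 0.45. Of 7 mitochondrially encoded genes 5 were lower in the same comparison (median -0.10) and 0 higher, and their part in the result was not tested. By number of factors detected, without matching, the G2 and M phase list summed to 2577 ± 549 CPM at 0 and 2276 ± 535 at 1. It summed to 1895 ± 915 at 2 and 1630 ± 871 at 3 or more. Median depth rose over these groups from 6679 to 8952, 12904 and 19548 counts. The skeletal muscle list was at 222 CPM in the first group and 2358 in the last. The part of depth and muscle cells in this series was not tested.

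The viral pool did not end with the 13 factors. Of 29 other pool factors tested, 13 were lower in factor-negative cells and 2 (Msx2 and Nr2f2) higher. Mef2b was at 13.4 ± 9.79 against 29.3 ± 16.6 CPM (-1.07), Meis1 at 71.6 against 109 (-0.57) and Lbh at 234 against 316 (-0.41). The counts do not separate vector from native transcripts.

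Fewer genes were called without the cells that held muscle, mesothelial or other markers, in 1905 pairs where the full comparison had 2887. The comparison with cells of exactly 1 factor, below, had 2212 pairs. What the smaller number of pairs did to the calls was not tested. Without cells holding at least 3 markers of another type on either side, 635 of 14487 genes were called (4.38%; 314 higher, 321 lower), 590 of them called in the same direction before. Skeletal muscle genes then fell in 1 of 17, cardiomyocyte genes in 2 of 14 and mesothelium genes in 3 of 12, as the removal itself used these genes. S phase then had 2 of 20 genes higher (median 0.21) and G2 and M phase 2 of 24 (0.17), with 0 lower in each. Secretory stress had 1 of 17 higher, the contractile list 2 of 20 higher and 1 lower, the collagens 1 of 16 higher and 3 lower, and the 5 markers and 7 mitochondrially encoded genes 0 called. Elastic fibre genes had 4 higher and 2 lower, chemokines and cytokines 4 and 1, fibroblast surface genes 4 and 1, regulators 3 and 1, and other pool factors 0 and 7. Against cells with exactly 1 factor detected, 491 of 15139 genes were called (3.24%), with S phase at 9 higher and 0 lower, G2 and M phase at 5 and 0, secretory stress at 2 and 0, the 5 markers at 0 and 1, the collagens at 1 and 3, and skeletal muscle at 10 of 20 lower. Elastic fibre genes were then at 5 higher and 0 lower, fibroblast surface genes at 2 and 1, and regulators at 2 and 1.

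**Figure D5:**
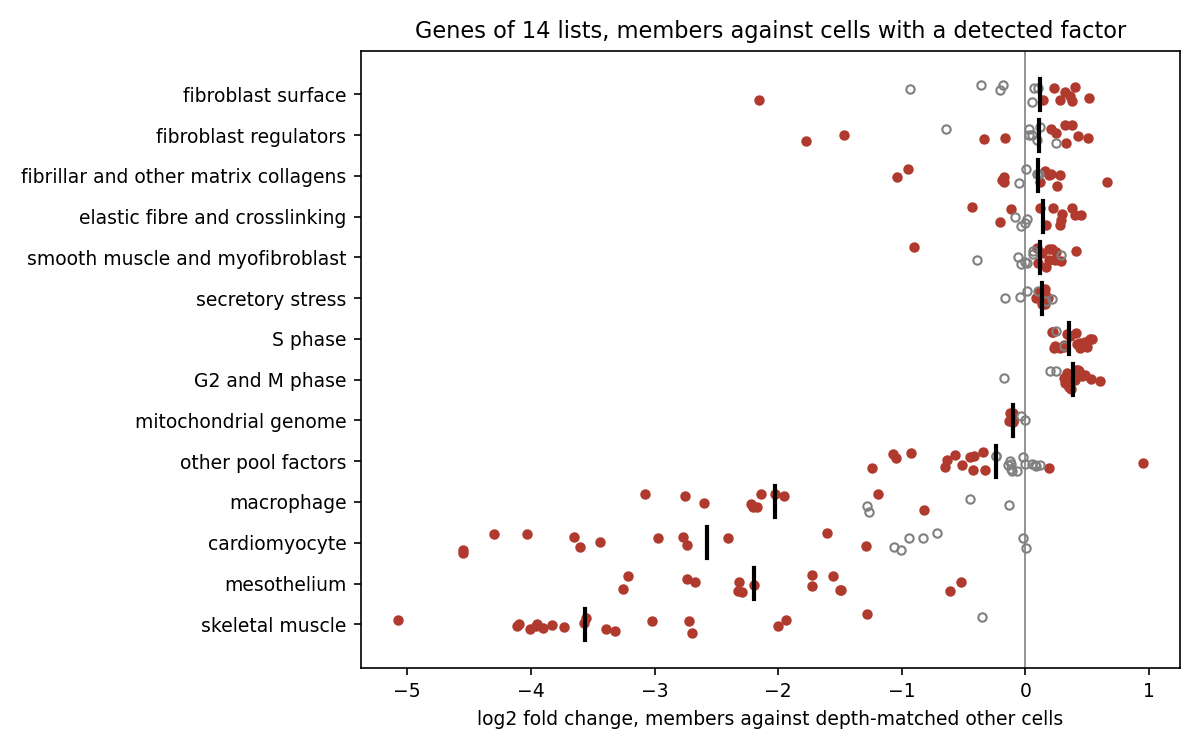
Log2 difference of each gene of 14 lists between factor-negative cells and depth-matched cells with a factor (36 libraries); filled points passed an adjusted p of 0.05, open points did not, and bars are list medians. Skeletal muscle (-3.56), cardiomyocyte (-2.57) and mesothelium (-2.19) lie far to the left, and S phase (0.35) and G2 and M phase (0.38) to the right of 0.

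The baseline also varied between libraries by the form of their names, which the labels give without saying what it stands for. Factor-negative cells of 11 libraries named JD with a letter (999 cells) were compared with those of 15 named PZ47 or PZ48 (1665 cells), and 163 of 14007 genes were called, 62 of them lower in the JD libraries (1.16% in either direction, 0.721% higher and 0.443% lower). All factor-negative cells of each library were summed, without pairing by depth. None of the 5 markers passed in edgeR's test (adjusted p from 0.67 for Ogn to 0.91 for Col3a1). The genes that differed most included ones with many processed copies in the genome: the glycolytic gene Pgk1 was at 8.99 ± 2.88 against 72.9 ± 26.5 CPM (-2.93, edgeR adjusted p = 1.16e-12) and the cytoplasmic actin Actg1 at 14.3 against 58.0 (-1.93). Such genes are uncertain because counting can divide their reads. Among other genes, the transcription factor Cebpb was 1.45 higher in the JD libraries with a letter (65.0 ± 20.5 against 24.2 ± 11.5 CPM) and Twist1 0.40 higher (73.7 against 56.0). Of 11 macrophage genes 5 were higher there, with Lyz2 at 34.9 ± 78.1 CPM against 3.93 ± 3.03 but medians of 2.76 and 3.36, and the list's highest library, technical replicate 7, is among them.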

How the data were processed

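The files hold counts of unique molecular identifiers per gene and cell barcode for 37 technical replicates, deposited by the authors as raw counts with no scaling. Per the submitters' processing notes, bcl2fastq 2.17.1.14, STAR 2.5.3a, UMI-tools and featureCounts 1.5.3 were used with mm10. The annotation and the use of strand are not given in the sources used here. Of 27999 gene rows, 27645 were given a symbol from GENCODE M21 by Ensembl identifier. EGFP had 0 counts. All 13 mitochondrially encoded genes had counts in factor-negative cells, but only 7 had enough to be tested.

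Of 8730 barcodes, 89 copies shared between files and 76 that were 1 base from a deeper barcode of the same library were removed. The members and gene lists were chosen with earlier results of these data known. Levels are CPM of summed cells per library. Each comparison within libraries summed cells paired within 0.1 log2 of total counts, in libraries with at least 10 pairs. The comparison between library names summed all factor-negative cells of each library, without pairing or a block. All comparisons kept genes with at least 20 counts. They were fitted over all genes with edgeR 4.0.16 (quasi-likelihood, TMM) and adjusted by Benjamini-Hochberg. The paired comparisons had library as a block because both sums come from the same library. DESeq2 1.42.0 was an alternative. In simulated data with 100 genes changed 2-fold per comparison, the test found 95 for factor-negative against other cells (15613 genes), 90 for Ly6a (13324), 88 for Ogn (12598), 93 for Acta2 (12907) and 96 between library names (13877). These numbers describe the simulated counts only. Recovery was not measured in the real counts, nor separately for genes with few counts. It is therefore not read as the power of the tests above.

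Named genes were, per comparison, the 10 highest and 10 lowest called log2 differences with at least 10 CPM and the same sign in each group of library names, up to 3 called genes per list, the 5 markers, the 20 most variable genes and the 15 with the most counts. Other names in the text come from the complete lists of called list members and were picked with values in view. A few genes that the rule names are not reported here. The alternatives changed scaling, tool, count filter, pairing, cells kept and the libraries used. Promoters are RefSeq sequences (GRCm38.p6).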

Additional observations from a re-analysis of the deposited data

How the results depend on the processing

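For factor-negative cells (members against the other cells), the comparison gave 3286 calls. Cells without pairing gave 5004, without other-type markers 635, JD libraries alone 1325, PZ47 and PZ48 alone 1402, PZ58 alone 252, other cells with exactly 1 factor 491 and cells of at least 10000 counts 1986. The Ly6a comparison (239 calls) gave 141 in DESeq2, 126 with no replicate block, 619 without pairing, 93 without other-type markers, and 66, 103 and 39 in JD, PZ47 and PZ48, and PZ58 alone. The Ogn comparison (238) gave 137 in DESeq2, 114 with no replicate block, 533 without pairing (83.9% of them higher), 417 with at least 2 Ogn counts, and 55, 110 and 3 by library name. The Acta2 comparison (2254) gave 3544 without pairing and 852, 1028 and 384 by library name. With no replicate block it gave 2034, and the first comparison 2397. Between library names, 163 calls became 86 after thinning. The share of cells at 0 was 64.3% after thinning, and 291 genes varied past the limit among those of at least 50 CPM. Subsets hold fewer libraries, fewer pairs or both. The other causes were not tested. Of 4409 values of named genes under alternatives, 3617 kept their side of the threshold, 752 lost the call, 19 gained it and 21 reversed. Called values among the 3617 also kept their direction. A change of direction that was not called in either setting was counted among the 3617 and not as reversed. The reversed log2 values, in the first comparison, were mt-Nd5 0.0793, mt-Nd6 0.10 and mt-Cytb 0.0010 without pairing. Without other-type markers they were Mybph 0.0729, Actc1 0.10, Tnnc2 0.12, Upk3b 0.0186 and Myh3 0.29, and in PZ58 Plin2 -0.10. For Ly6a they were Msln 0.0694 without other-type markers, Acta1 0.31 in PZ47 and PZ48, and Prrx2 -0.0050, Ccn1 0.18 and Rspo2 -0.38 in PZ58. For Ogn they were Lyz2 0.0370 in DESeq2, 0.77 without other-type markers and 0.85 in PZ47 and PZ48, and Bst2 -0.23 and Kif20b 0.18 in PZ58. For Acta2 they were B2m 0.0288 and Cenpa -0.0370 in PZ58.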
